A study of Homo sapiens with 12 samples.

Results

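The 84 genes described here encode the proteins of the human cytosolic ribosome and a few close relatives of them. They were taken from the 57865 genes of the deposited table by symbol: protein-coding genes of GENCODE release 29 named RPL or RPS with a number (with or without A, X or L), together with RPLP0, RPLP1, RPLP2 and RPSA. By name, 52 belong to the large and 32 to the small subunit, and 82 of the 84 passed the low-count filter. The exceptions were RPL3L and RPL10L, which are known from striated muscle and from testis and had at most 12 estimated counts in any library. The rule leaves out some genes of the same kind, such as FAU and RPL36AL, and it takes in RPL7L1, whose product is known from ribosome assembly and not from the finished particle.

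RNA was sequenced from 4 human acute myeloid leukaemia lines after 12 h with 10 µM pioglitazone, 10 µM darglitazone or the solvent DMSO. MOLM-14 and MV4-11 are lines with a KMT2A fusion and an internal tandem duplication in FLT3, OCI-AML3 carries mutant NPM1, and KG-1a is an immature line that bears CD34. Both drugs are thiazolidinediones, which activate the nuclear receptor PPARγ. Every line gave 1 library per treatment, 12 in all, so the line is the replicate for a drug, and the 3 libraries of a line stand for 1 line under 3 treatments. The labels name no separate cultures, and a p-value for a difference between lines measures only the spread between these libraries.

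A ribosome holds 1 copy of nearly every ribosomal protein, and unassembled copies are degraded, so cells are known to make these proteins in near-equal amounts. Their mRNAs are among the most abundant of a growing cell. In vertebrates they begin with a C followed by a run of pyrimidines, the 5′ terminal oligopyrimidine (TOP) motif, through which mTOR signalling and the binding protein LARP1 control their translation. Several genes have a paralogue whose protein can take the same place in the ribosome, and inherited loss of 1 allele of many of them causes Diamond-Blackfan anaemia, a failure of red cell production.

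The TOP motif is shown for paralogue pairs and for members that differed between the lines, since it is the feature the group shares in sequence and the one that separates some paralogues from their partners. Each line gives 30 bases, 5′ to 3′ on the gene's strand, from the RefSeq annotation of GRCh38.p14: 12 bases before the annotated transcription start and 18 from it on. Capitals mark the longest run of C and T that reaches to within 5 bases of the start.
RPL22, chr1:6199578-6199607, minus strand: ttcgctcaCCTCCCTTTCTaactccgctgc
RPL22L1, chr3:170870178-170870207, minus strand: ggccgtagCTTCCTCTCTgctctcgcggcc
RPL26, chr17:8383176-8383205, minus strand: cagcgtgtagTTCTCTTCCCTTTTgcggcc
RPL26L1, chr5:172958717-172958746, plus strand: cttccaggggTCggcgaacgaaacgcggag
RPS27, chr1:153990750-153990779, plus strand: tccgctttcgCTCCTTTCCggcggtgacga
RPS27L, chr15:63157460-63157489, minus strand: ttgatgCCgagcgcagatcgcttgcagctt
RPL41, chr12:56116621-56116650, plus strand: aacttcgCCTTTCTCTCggccttagcgcca
RPS12, chr6:132814557-132814586, plus strand: tgcggatgaggCCTCTTTCCCTgccgccgc
RPL13A, chr19:49487596-49487625, plus strand: caaaaCCTCCTCCTTTTCCaagcggctgcc
RPL21, chr13:27251546-27251575, plus strand: ccccgCCTCTTTCCTTTCggccggaaccgc
RPS24, chr10:78033851-78033880, plus strand: cgaatcgtggTTCTCTTTTCCTCCTTggct
The run was 11 bases long in RPL22 and 10 in RPL22L1, so both genes of that pair carry it. It was 14 bases in RPL26 and 9 in RPS27, against 2 in each of their paralogues RPL26L1 and RPS27L.

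Of the 84 members, 67 had an entry in the RefSeq promoter table. A pyrimidine run of at least 8 bases at the start was found in 48 of them (71.6%), against 11.4% of 14883 protein-coding genes, and the median run was 11 bases against 4. The annotated first base was C in 70.1% of the members and in 11.2% of all these genes. Over the 300-base window from 250 bases before the start to 50 after it, both strands searched, the letters CCGGAAG (the core that ETS factors bind) occurred in 34.3% of the members and in 14.4% of all genes. The TATA box letters TATAAA occurred in 10.4% of the members and in 9.38% of all genes. Motifs were searched independently, and a match is a description of the letters, not of a bound factor.

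Library depth, in units of 1e6 estimated counts, ran from 1.1 for OCI-AML3 with pioglitazone to 64.24 for OCI-AML3 with DMSO. The annotated entry FP671120.3 took 23.535% of the counts of KG-1a and 6.174% of those of OCI-AML3 under pioglitazone, against at most 0.145% under DMSO, so shares below are given of protein-coding counts. Each of 10 leukocyte and myeloid markers was detected in at least 1 library, with a summed level of 1084 to 3600 CPM (counts scaled to library size, per 1e6), and CD34 stood at 454 to 725 CPM in KG-1a and at most at 8.22 CPM in the other lines. The summed levels ran from 0.0 to 33.75 CPM for 3 T cell markers, 0.26 to 48.79 for 3 B cell markers, 0.0 to 0.64 for 5 erythroid and megakaryocyte markers, 0.0 to 56.95 for 4 epithelial markers and 0.0 to 1.16 for 3 fibroblast markers. MS4A1, HBB and PF4 were at 0 in every library, CD79B had 29.1 to 48.1 CPM in KG-1a and at most 3.32 elsewhere, CD3E 10.9 to 14.8 CPM in KG-1a and at most 0.0865 elsewhere, and KRT18 41.4 to 47.9 CPM in MOLM-14 and at most 13.0 elsewhere. Of the levels they had in their own line, 67 genes specific to KG-1a kept a median of 2.1% in OCI-AML3 with pioglitazone, and 6 genes specific to MV4-11 kept 3.94% in KG-1a with darglitazone. The part of these features in the results was not tested.

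The ribosomal protein genes took 10.55% to 15.99% of all protein-coding counts, and MOLM-14 stood above the other lines. The share was 15.25%, 15.99% and 15.44% in MOLM-14 with pioglitazone, darglitazone and DMSO. It was 12.62%, 13.2% and 11.69% in MV4-11 and 12.79%, 11.42% and 12.14% in OCI-AML3. In KG-1a it was 10.56%, 11.3% and 10.55%. The 3 MOLM-14 libraries did not overlap with any other library and the 3 KG-1a libraries were the lowest, while MV4-11 and OCI-AML3 overlapped. The line means were 15.56% ± 0.39 for MOLM-14, 12.5% ± 0.76 for MV4-11, 12.11% ± 0.68 for OCI-AML3 and 10.8% ± 0.43 for KG-1a (SD, n = 3 libraries each). In a culture, fewer cells with a transcript and less of it per cell cannot be told apart.

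**Figure D1:**
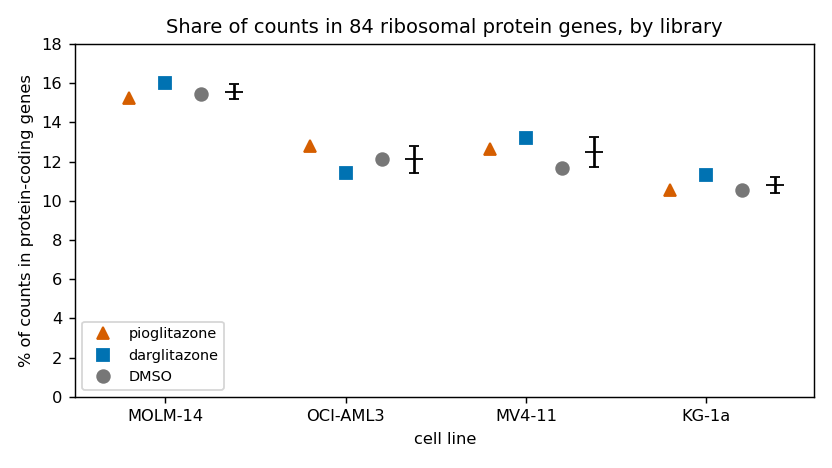
Share of protein-coding counts in the 84 ribosomal protein genes (y axis, %) for each library, by cell line. Triangles are pioglitazone, squares darglitazone and circles DMSO; the black marks give the mean and SD of the 3 libraries of a line. All MOLM-14 libraries lie between 15.25% and 15.99%, above every library of the other lines.

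Per transcript length most members were among the highest genes, with a tail of paralogues far below them. Levels between genes are compared here as TPM, counts per kilobase scaled to a fixed sum over the protein-coding genes of a library. By mean TPM, 61 of the 100 highest genes and 75 of the 200 highest were members, and the median over the tested members was 3058 TPM. The highest were RPS18 at 8878 ± 2798, RPL4 at 7414 ± 471, RPL13A at 7251 ± 2203, RPS27 at 7096 ± 2131 and RPS19 at 6708 ± 1486 TPM (SD, n = 12 libraries). Their SDs overlap. The level of RPL4 rests almost wholly on transcripts not typed as protein-coding, which held 93.28% of its counts. Among tested members the 5 lowest were all genes with an L in the name, the paralogues RPL39L at 25.9 ± 19.9, RPL26L1 at 82 ± 39.7, RPS27L at 171 ± 99.6, RPL7L1 at 227 ± 83.5 and RPL22L1 at 279 ± 311 TPM. They were followed by RPS26, a protein near the mRNA exit channel of the small subunit, at 574 ± 185 TPM.

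The cell lines were compared first. Of the 82 tested members, 78 (95.1%) differed between the lines in edgeR's quasi-likelihood test at an adjusted p under 0.05, against 72.6% of all 15424 genes tested. The size of the difference was small for most: the range between line means had a median of 0.80 on the log2 scale for the members and 1.44 for all genes. It exceeded 1 for 32 of the 82 members, against 67.2% of all genes. The largest range within a line had a median of 0.33 for the members and 1.07 for all genes. Most members are among the highest genes, and all genes include many with low counts. The part of count level in these comparisons was not tested. RPL7, RPL15, RPL37A and RPL39 were the 4 members that did not pass, with adjusted p-values of 0.0585, 0.166, 0.94 and 0.0674. Since the 4 line contrasts below set each line against the mean of the other 3, they share libraries and are not independent of each other.

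In MOLM-14 nearly the whole group was high. Set against the mean of the other lines, 67 members rose and 2 fell, where 23.5% of all genes rose and 17.7% fell (69 members in either direction, 41.2% of all genes), and the median over the 82 members was 0.44 on the log2 scale against 0.04 over all genes. The large subunit had 38 higher and 2 lower of 50, and the small subunit 29 higher of 32. For 51 members all 3 MOLM-14 libraries lay above all 9 others, which 9.62% of all genes did, and for 0 members they lay below all others, which 5.61% of all genes did.

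RPL21, a large-subunit protein, had 1686, 1743 and 1581 CPM in MOLM-14 with pioglitazone, darglitazone and DMSO, against 507 to 779 CPM in the 9 libraries of the other lines. The groups did not overlap, and the log2 fold change was 1.33 (SE 0.07, adjusted p = 4.73e-09). RPS15, a small-subunit protein needed for export of its precursor from the nucleus, had 1235, 1339 and 1293 CPM in MOLM-14, against 434 to 973 CPM elsewhere, a log2 fold change of 0.96 (SE 0.08, adjusted p = 5.43e-07). RPLP0, which anchors the stalk that recruits elongation factors, had 5458, 5784 and 5727 CPM in MOLM-14, against 2487 to 3714 CPM elsewhere. All 3 stalk genes rose in MOLM-14, and all 3 fell in KG-1a. The 2 members that fell in MOLM-14 were the paralogues RPL26L1, by 0.41 (SE 0.13, adjusted p = 0.0256), and RPL22L1, by 0.33 (SE 0.12, adjusted p = 0.0367). MOLM-14 was not the lowest line for either. RPL26L1 had 21.6 to 24.9 CPM there, overlapping with MV4-11 (19.7 to 24.5) and OCI-AML3 (23.8 to 30.7), while KG-1a had 44.6 to 55.5. RPL22L1 had 44.3 to 56.0 CPM, overlapping with MV4-11 (46.4 to 48.7) and above KG-1a (19.2 to 27.0), while OCI-AML3 had 220 to 296. Neither call was robust to the loss of 1 library: with MOLM-14 pioglitazone left out the adjusted p was 0.101 for RPL26L1 and 0.121 for RPL22L1.

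KG-1a showed the opposite picture. Here 61 members fell and 2 rose, where 27.2% of all genes fell and 26.9% rose (63 members in either direction, 54.0% of all genes), with a median of -0.36 over the members and -0.03 over all genes. The large subunit had 40 lower of 50 and the small subunit 21 lower of 32. For 26 members the 3 KG-1a libraries lay below all others, which 13.5% of all genes did, and for 1 they lay above all others, which 15.4% of all genes did. RPL41, which encodes the shortest ribosomal protein, had 586, 689 and 635 CPM in KG-1a with pioglitazone, darglitazone and DMSO, against 1716 to 2267 CPM in the other lines. The groups were far apart, with a log2 fold change of -1.62 (SE 0.09, adjusted p = 1.87e-09). RPL35, which lies near the exit of the peptide tunnel, had 302, 321 and 304 CPM against 655 to 1009 CPM. RPL41 and RPL35 were named after their values were seen. Other members named for a small p or an extreme fold change were also picked on their values.

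RPS14, whose loss on chromosome 5q is tied to the anaemia of a myelodysplastic syndrome, had 515, 625 and 601 CPM in KG-1a, against 978 to 1717 CPM in the other lines. Its groups did not overlap either, and it fell by 1.13 (SE 0.09, adjusted p = 6.15e-08). RPS4X, an X-linked protein of the small subunit, was 1 of the 2 members that rose in KG-1a, by 0.29 on the log2 scale (SE 0.08, adjusted p = 0.00509). Its 1371 to 1452 CPM in KG-1a stood above the 901 to 1122 CPM of OCI-AML3 and MV4-11 but below the 1470 to 1582 CPM of MOLM-14, and without the KG-1a DMSO library its adjusted p was 0.119.

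In OCI-AML3 and MV4-11 the members' medians lay near 0 and members moved both ways. In OCI-AML3 17 members rose and 20 fell, where 23.0% of all genes rose and 19.4% fell (37 members in either direction, 42.3% of all genes), with a median of -0.03. In MV4-11 17 rose and 19 fell, where 23.3% of all genes rose and 17.5% fell (36 members in either direction, 40.9% of all genes), with a median of -0.06. The OCI-AML3 libraries lay above all others for 4 members (7.95% of all genes) and below for 2 (7.23%), and the MV4-11 libraries above for 6 (9.27%) and below for 5 (6.19%). The count for MV4-11 depended on the libraries used: without its pioglitazone library 21 members in all passed, against 36 with it. Libraries of other lines mattered too: without MOLM-14 DMSO 15 rose and 14 fell. Leaving out 1 library at a time, the count ran from 21 to 48.

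**Figure D2:**
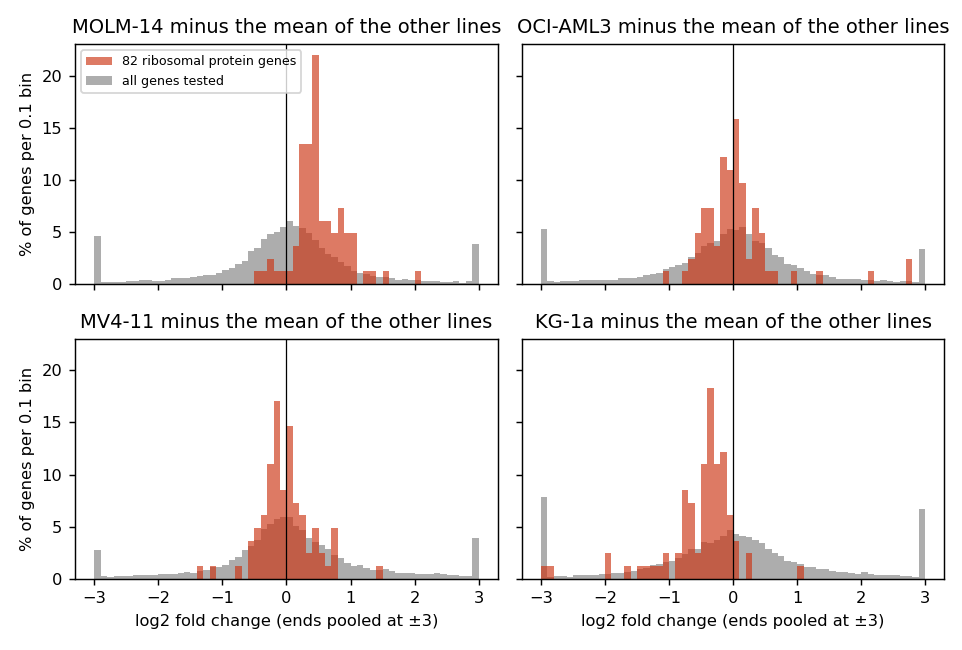
Log2 fold changes of each cell line against the mean of the other lines (x axis, in bins of 0.1 with the ends pooled at ±3), as the percentage of genes per bin (y axis). Red bars are the 82 ribosomal protein genes and grey bars all 15424 genes tested. The red bars sit right of 0 in MOLM-14 (median 0.44), left of 0 in KG-1a (median -0.36) and around 0 in the other 2 lines.

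The contrasts of OCI-AML3 and MV4-11 were also split by chromosome, after they had been seen. Chromosome 19 carries 12 members, among them RPL13A, RPL36, RPS15, RPS16 and RPS19. In MV4-11 10 of them rose and none fell, which is 10 of the 17 members that rose there, and in OCI-AML3 10 fell and none rose, of 20 that fell. The remaining 10 falls in OCI-AML3 lay on other chromosomes. The other 1177 tested genes of chromosome 19 moved alike: their median was 0.52 in MV4-11, where the 12 members had 0.49, and -0.46 in OCI-AML3, where the members had -0.49. RPL13A, a large-subunit protein also known from a translation-silencing complex in monocytes, had 5519, 5516 and 4809 CPM in MV4-11 with pioglitazone, darglitazone and DMSO, against 2056 to 4509 CPM in the other lines. The groups did not overlap, with a log2 fold change of 0.78 (SE 0.08, adjusted p = 1.74e-06). RPL36, a large-subunit protein, had 418, 545 and 557 CPM in OCI-AML3, against 536 to 1166 CPM elsewhere, so that it overlapped with KG-1a, and it fell by 0.76 (SE 0.09, adjusted p = 1.25e-05).

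On other chromosomes the members and the other genes had like medians in some cases and unlike ones in others. On chromosome 6, 4 of 5 members fell in MV4-11, with a median of -0.51 beside -0.42 for the other 799 genes. They included RPS12, a small-subunit protein, with 688, 800 and 651 CPM in MV4-11 against 1138 to 2282 CPM elsewhere, which fell by 1.16 (SE 0.10, adjusted p = 3.39e-07). RPS10, also on chromosome 6, fell there by 0.70 (SE 0.08, adjusted p = 1.18e-05). On chromosome 5 the median in MV4-11 was -0.45 for 4 members, 3 of which fell and 1 rose, but -0.02 for the other 648 genes. On chromosome 8 it was -0.26 for the members and 0.03 for the other genes, on chromosome 17 -0.09 and 0.19, and on chromosome X -0.15 and 0.10. In OCI-AML3 chromosome 5 had 0.06 and 0.27, and chromosome 15 had -0.10 and 0.08. On chromosome 4 all 3 members (RPL9, RPL34 and RPS3A) fell in KG-1a, with a median of -1.08 beside -0.73 for the other 507 genes. In MOLM-14 the members' median was above that of the other genes on every chromosome plotted, and in KG-1a it was below on every one but chromosome 5. In KG-1a the 12 members of chromosome 19 all fell, with a median of -0.48, where its other genes had -0.05. The files give no copy numbers, and the number of copies of each chromosome in these cultures was not analysed here.

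**Figure D3:**
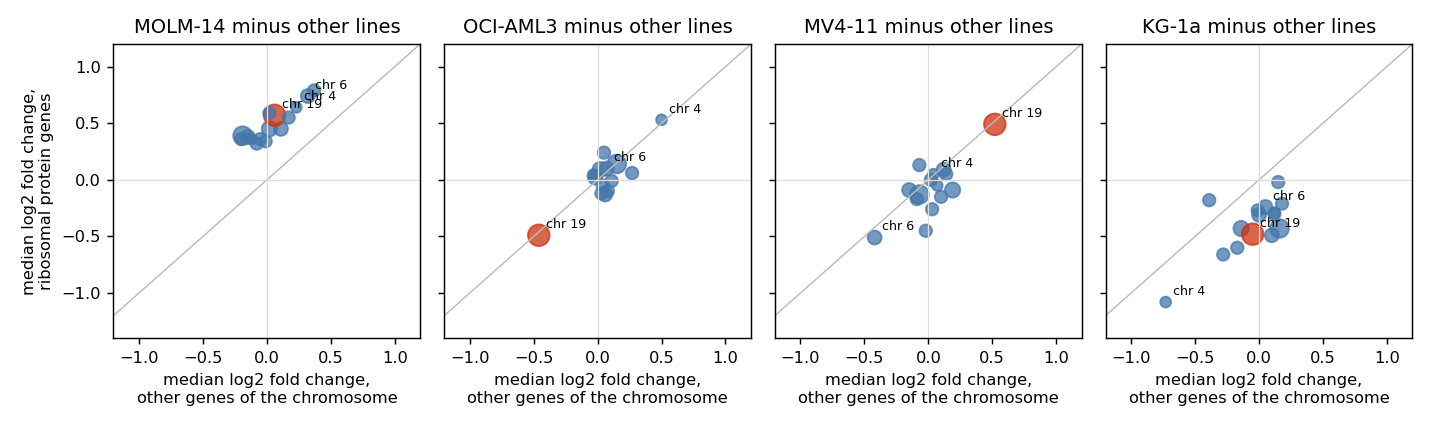
Median log2 fold change of the ribosomal protein genes of a chromosome (y axis) against that of its other tested genes (x axis), 1 panel per line set against the mean of the other lines. Each point is a chromosome with at least 3 tested members, its area scales with their number, chromosome 19 is red, and the grey line marks equal values. Chromosome 19 lies on the line at 0.49 against 0.52 in MV4-11 and at -0.49 against -0.46 in OCI-AML3, whereas all points lie above the line in MOLM-14 and all but chromosome 5 below it in KG-1a.

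The paralogue pairs changed their balance between lines. RPL22L1 and RPL22 are alternative large-subunit proteins, and RPL22 is known to repress RPL22L1 in mouse cells. RPL22L1 (chromosome 3, 170864875 to 170870483, minus strand) had 296, 234 and 220 CPM in OCI-AML3 with pioglitazone, darglitazone and DMSO. In the other lines it had 44.3 to 56.0 CPM in MOLM-14, 46.4 to 48.7 CPM in MV4-11 and 19.2 to 27.0 CPM in KG-1a. OCI-AML3 did not overlap with any of them, and the log2 fold change was 2.72 (SE 0.11, adjusted p = 2.97e-10). In KG-1a RPL22L1 fell by 1.94 (SE 0.13, adjusted p = 1.79e-08). RPL22 (chromosome 1, 6185020 to 6209389, minus strand) went the other way, with 214, 201 and 236 CPM in OCI-AML3, against 320 to 597 CPM in the other lines. It fell by 1.01 (SE 0.10, adjusted p = 3.02e-06).

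Per length, RPL22L1 made up 70.3%, 61.8% and 58.0% of the pair in OCI-AML3. In the 9 other libraries it made up 6.41% to 16.2%. The line means were 63.4% ± 6.3 for OCI-AML3, 15.5% ± 0.702 for MV4-11, 10.9% ± 1.21 for MOLM-14 and 8.54% ± 2.44 for KG-1a (SD, n = 3 libraries each). OCI-AML3 was thus the line in which the paralogue exceeded its partner per length, and it did so in all 3 libraries. As counts not divided by length, its share there was 58.1%, 53.8% and 48.2%, so with DMSO it did not exceed RPL22. The 70.3% rests on 337 estimated counts of RPL22L1 and 244 of RPL22.

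RPL26L1 and RPL26 shifted in KG-1a. RPL26 is a large-subunit protein at the tunnel exit, and RPL26L1 is its close paralogue. RPL26L1 (chromosome 5, 172958729 to 172969771, plus strand) had 55.5, 44.6 and 50.9 CPM in KG-1a, against 19.7 to 30.7 CPM in the other lines. It rose by 1.06 (SE 0.13, adjusted p = 5.65e-06), with no overlap. RPL26 (chromosome 17, 8377516 to 8383250, minus strand) had 474, 515 and 472 CPM in KG-1a, against 989 to 1738 CPM elsewhere, and fell by 1.49 (SE 0.11, adjusted p = 2.91e-08). The paralogue's share of the pair per length averaged 7.97% ± 1.32 for KG-1a, against 1.75% ± 0.0265 for OCI-AML3, 1.58% ± 0.361 for MV4-11 and 1.17% ± 0.131 for MOLM-14.

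RPS27L, a paralogue of RPS27, had 97.4, 116 and 150 CPM in OCI-AML3 and 81.4, 82.1 and 100 CPM in MV4-11. It had 49.7 to 56.8 CPM in MOLM-14 and 16.1 to 26.6 CPM in KG-1a. MV4-11 and OCI-AML3 overlapped and stood above MOLM-14, which stood above KG-1a. The log2 fold change was 1.37 (SE 0.12, adjusted p = 8.06e-07) in OCI-AML3, 0.76 (SE 0.12, adjusted p = 0.000197) in MV4-11 and -1.92 (SE 0.15, adjusted p = 6.15e-08) in KG-1a.

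RPL39L, a paralogue of RPL39 known mainly from male germ cells, was nearly absent from KG-1a, with 0, 2 and 4 estimated counts under pioglitazone, darglitazone and DMSO. It had 25 to 1723 counts in the libraries of the other lines, with OCI-AML3 at 16.6 to 25.8 CPM, MV4-11 at 8.28 to 14.1 CPM and MOLM-14 at 10.5 to 11.4 CPM. It passed the test as lower in KG-1a (adjusted p = 1.02e-07), and no fold is given against libraries at so few counts. Its share of the pair per length stayed at or below 2.29% in every library. RPL7L1 was 6.31% ± 0.566 of its pair with RPL7 in OCI-AML3, against 3.18% to 4.45% as means of the other lines. RPL3L and RPL10L, with at most 10 and 12 estimated counts in a library, made up at most 0.0157% and 0.0134% of their pairs.

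**Figure D4:**
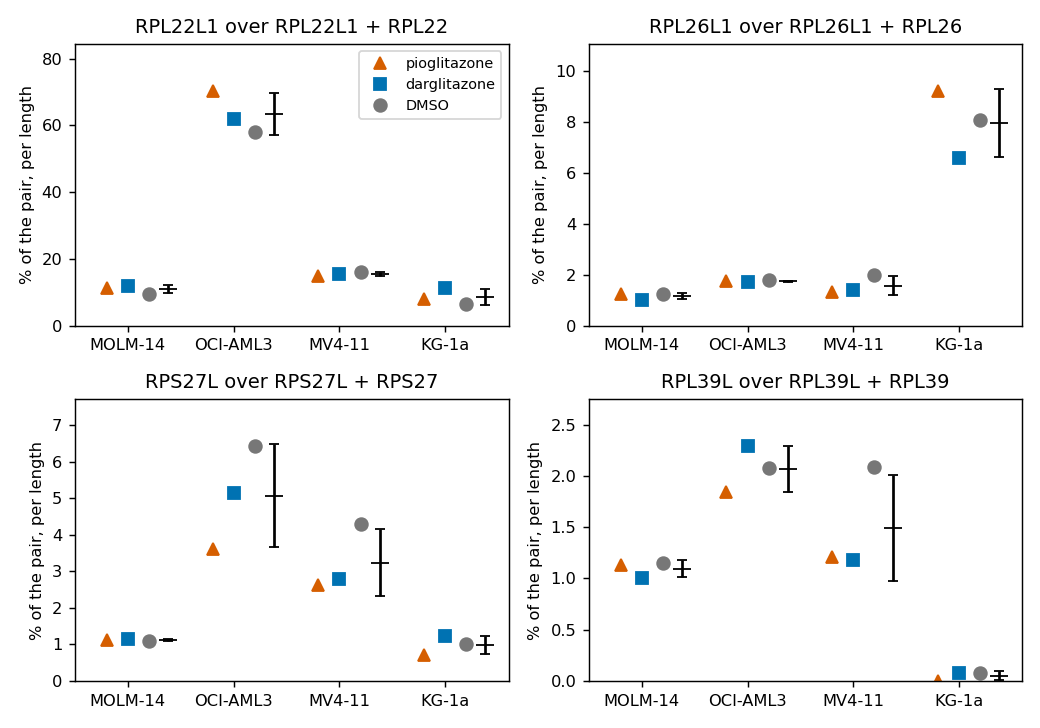
Share of a paralogue in the sum of its pair (y axis, %, counts per kilobase) for each library, by cell line. Triangles are pioglitazone, squares darglitazone and circles DMSO; black marks give the mean and SD of 3 libraries. RPL22L1 exceeds 50% in OCI-AML3 (58.0% to 70.3%), and RPL26L1 stands at 6.59% to 9.23% in KG-1a against at most 1.99% in the other lines.

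The estimated counts of some members depend on how reads were divided among near-identical copies. RPL9, a large-subunit protein (chromosome 4, 39452521 to 39458949, minus strand), had 725 to 1263 CPM in OCI-AML3 and 908 to 1009 CPM in MOLM-14, but 147 to 191 CPM in MV4-11 and 74.1 to 80.4 CPM in KG-1a. As deposited this gives log2 fold changes of 2.12 for OCI-AML3, 2.06 for MOLM-14, -1.38 for MV4-11 and -2.80 for KG-1a, all past the threshold. The pseudogene RPL9P9, a near-identical copy, held 86.9% ± 3.51 of the counts of both in MV4-11 and 87.1% ± 1.02 in KG-1a, against 37.1% ± 7.03 in OCI-AML3 (SD, n = 3 libraries each) and 39.7% to 41.7% in MOLM-14. Summed, they had 1274 ± 156 CPM in MV4-11 and 608 ± 62 CPM in KG-1a, against 1599 ± 274 CPM in OCI-AML3 and 1632 ± 73.1 CPM in MOLM-14 (SD, n = 3). With all named pseudogenes added to their genes, a choice made after the data were seen, RPL9 had a log2 fold change of -1.30 in KG-1a (adjusted p = 4.09e-07), 0.56 in OCI-AML3 (adjusted p = 0.000784) and 0.59 in MOLM-14 (adjusted p = 0.000484). In MV4-11 it had 0.14, with an adjusted p of 0.355, so the fall in MV4-11 did not hold. RPL21 held its rise in MOLM-14 at 1.15 (adjusted p = 4.67e-07).

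Transcripts not typed as protein-coding took 11.86% to 14.15% of the members' counts, and they were concentrated in a few genes. Transcripts with a retained intron held 6.51% to 7.54% of the members' counts in each library, and transcripts marked for nonsense-mediated decay 2.3% to 4.03%. The median over the members was 1.98%, while 13 members exceeded 25%. In RPL4, a large-subunit protein whose long extension reaches into the ribosome, 93.28% of the counts were assigned to such transcripts on average, above all to a retained-intron transcript, RPL4-203, and in RPL14 84.88%. These splits are estimates, since the transcripts of a gene share most of their sequence.

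RPS24, which is mutated in some Diamond-Blackfan families, had another balance of transcripts in KG-1a. Of the counts in its 2 main protein-coding transcripts, RPS24-202 (553 bases) held 42.9%, 46.4% and 55.1% in KG-1a with pioglitazone, darglitazone and DMSO. It held 9.91% to 16.8% in MV4-11, 5.72% to 6.45% in MOLM-14 and 2.81% to 4.64% in OCI-AML3, and the rest was RPS24-214 (634 bases). KG-1a did not overlap with any other line. RPS24 as a whole had 905 to 914 CPM in the drug-treated and 838 CPM in the DMSO library of KG-1a, the lowest of the lines, and fell there by 0.75 (SE 0.10, adjusted p = 1.49e-05).

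Of 18 members named for inherited or acquired disease, 13 fell and none rose in KG-1a, and 14 rose and none fell in MOLM-14, beside 74.4% of all tested members that fell in KG-1a and 81.7% that rose in MOLM-14. Beside RPS14, RPL26, RPS15 and RPS24, the genes that fell in KG-1a included RPS26 by 0.75 (SE 0.11, adjusted p = 3.12e-05) and RPL35A by 0.66 (SE 0.09, adjusted p = 2.09e-05). RPS19, the gene most often mutated in Diamond-Blackfan anaemia, had 2541, 2607 and 2388 CPM in MV4-11 with pioglitazone, darglitazone and DMSO, against 1281 to 1752 CPM in the other lines. MV4-11 stood apart from all of them, and RPS19 rose there by 0.70 (SE 0.07, adjusted p = 3.48e-06). RPL5 and RPL11, which together with 5S RNA bind and inhibit MDM2 when ribosome assembly fails, had 1376 to 1610 and 1085 to 1214 CPM in OCI-AML3, within the range of the other lines.

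The drugs were compared next, and no member passed the test. Against DMSO 0 of 82 members were called with pioglitazone and 0 with darglitazone, 0 between darglitazone and pioglitazone, and 0 for the mean of both drugs, as edgeR called 0.0% of all 15424 genes in each of these contrasts. At an unadjusted p under 0.05 edgeR had 2 members with pioglitazone, 0 with darglitazone, 3 between the drugs and 0 for both drugs. These were 2.44%, 0.0%, 3.66% and 0.0% of the members, beside 5.96%, 3.4%, 3.51% and 4.86% of all genes. DESeq2 had 1, 0, 3 and 0 members, beside 6.59%, 4.17%, 4.21% and 5.65% of all genes. limma-voom had 1, 4, 4 and 0 (1.22%, 4.88%, 4.88% and 0.0%), beside 6.09%, 9.26%, 5.62% and 7.79% of all genes. In either tool 0 members passed the adjusted threshold. Over all genes DESeq2 called 56, 6, 12 and 44 in these contrasts, and limma-voom 0 in each. The median log2 fold change of the members was -0.02 with pioglitazone and 0.04 with darglitazone, beside -0.02 and 0.01 for all genes.

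The 95% confidence intervals show what this design could resolve. For pioglitazone against DMSO the interval of 78 of 82 members lay within 0.5 on the log2 scale in either direction, and its half-width had a median of 0.20. It was the same 78 in number with darglitazone and between the drugs. RPL39L had the widest interval, with a half-width of 0.66 for pioglitazone. Changes smaller than these widths were not detectable with 4 lines. The intervals are not adjusted for the number of genes tested, so a change beyond them could still miss the adjusted threshold. RPS27L with pioglitazone, for example, had an interval of -0.65 to -0.05 and an adjusted p of 0.806 in the edgeR test.

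The members with the smallest p after pioglitazone were RPS27L and RPL8, an rRNA-binding protein close to the catalytic centre. The log2 ratio of RPS27L to DMSO was 0.04 in MOLM-14 but -0.62 in OCI-AML3, with -0.30 in MV4-11 and -0.56 in KG-1a, so it was lower in 3 of 4 lines (log2 fold change -0.35, SE 0.14, adjusted p = 0.806). RPL8 had -0.18, -0.53, 0.10 and -0.34 in the same order (log2 fold change -0.23, SE 0.10, with an adjusted p of 0.83). The strongest values of RPS27L and RPL8 came from OCI-AML3 and KG-1a with pioglitazone, the libraries that also held the most FP671120.3 counts. With both of these libraries left out, RPL8 was -0.01 for darglitazone against pioglitazone, beside 0.22 with every library. That fit drops the pioglitazone values of both lines, so it cannot set that entry apart from depth. The part of that entry and of depth was not tested.

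RPL22L1 was the member with the smallest p among those higher after both drugs. Its log2 ratios were 0.24, 0.43, 0.02 and 0.08 with pioglitazone and 0.34, 0.09, 0.07 and 0.49 with darglitazone in MOLM-14, OCI-AML3, MV4-11 and then KG-1a. It was above DMSO in all 8 pairs, yet its mean of 0.22 (SE 0.11) had an adjusted p of 0.996. Higher in all 4 lines were 5 members with pioglitazone and 6 with darglitazone, against 5.98% and 7.09% of all genes, and lower in all 4 were 5 and 4 members, against 10.7% and 7.12%. RPS16, a small-subunit protein named after its values were seen, had 58.0, 126 and 116 CPM in KG-1a with pioglitazone, darglitazone and DMSO. Its log2 ratio with pioglitazone was -0.43 in MOLM-14 and -0.61 in OCI-AML3, but 0.41 in MV4-11.

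Darglitazone and pioglitazone, compared at the same dose and time, differed in no member past the threshold. The 3 members with an unadjusted p under 0.05 (3.66%, against 3.51% of all genes) were all higher with darglitazone. Among them were RPL10, which joins the large subunit late in its assembly, by 0.19 (SE 0.08, adjusted p = 0.98), and RPS10 by 0.18 (SE 0.09, adjusted p = 0.98). With 1 pair of compounds and 4 lines these values do not show that the drugs act alike. The median over the members was 0.05, beside 0.03 over all genes.

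The share of protein-coding counts in the members was compared within lines. It averaged 12.802% ± 1.919 with pioglitazone against 12.453% ± 2.099 with DMSO (SD, n = 4 lines), a paired difference of 0.349 percentage points (SD 0.529), higher in 3 of 4 lines, with p = 0.375 in an exact two-sided permutation test of the signs. With darglitazone the paired difference was 0.526 points (SD 0.925), again higher in 3 of 4 lines, with an exact p of 0.375. With 4 pairs the smallest p this test can give is 0.13, so it cannot pass 0.05. Taken over all counts, which include FP671120.3, the pioglitazone difference was -0.699 points.

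**Figure D5:**
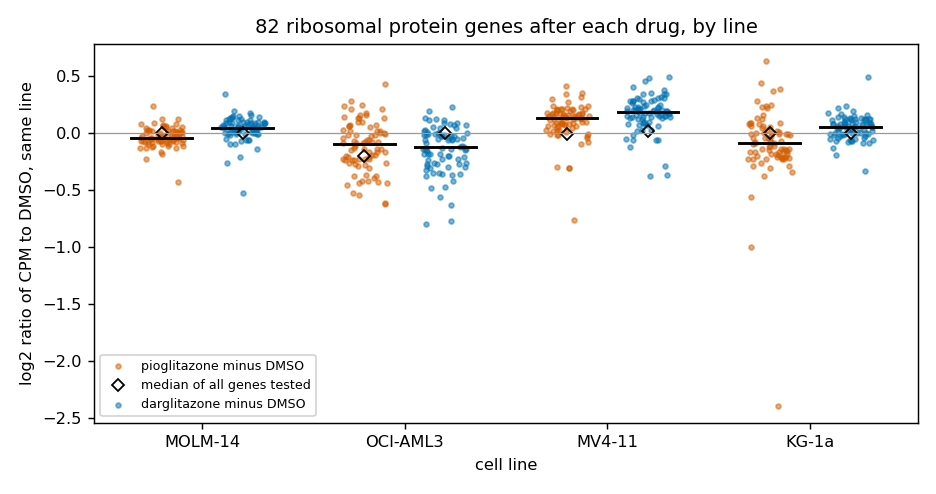
Log2 ratio of CPM after each drug to DMSO in the same line (y axis) for the 82 tested ribosomal protein genes, by cell line. Each point is 1 gene, orange for pioglitazone and blue for darglitazone, with bars at the median of the members and open diamonds at the median of all genes tested. Medians of the members run from -0.12 (OCI-AML3, darglitazone) to 0.19 (MV4-11, darglitazone), and the lowest point, in KG-1a with pioglitazone, is RPL39L, whose place rests on 0 against 4 counts and the prior count of 2.

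Within single lines the members' medians were small and differed in sign. The median log2 ratio was 0.13 with pioglitazone and 0.19 with darglitazone in MV4-11, beside -0.01 and 0.02 for all genes, and 70 and 73 of the 82 members were above DMSO. In OCI-AML3 the members had -0.10 and -0.12, beside -0.20 with pioglitazone for all genes, so that with pioglitazone they lay above the median of all genes. The all-gene median with darglitazone was 0.00 there. In MOLM-14 the members had -0.04 and 0.05, and in KG-1a -0.09 and 0.05, beside 0.00 for all genes in each. Each ratio rests on 1 library against another and has no replicate check. Both drugs of a line share its DMSO library, so their ratios in a line are not independent. The test for a response that differed between the lines called 0 of 82 members, against 0.00648% of all genes. At an unadjusted p under 0.05 it had 0 members in edgeR, 0 in DESeq2 and 2 (2.44%) in limma-voom. The shares of all genes there were 3.05%, 4.27% and 9.65%.

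Other genes of the translation machinery were counted from lists. Of all genes, 23.5% rose and 17.7% fell in MOLM-14, 23.0% and 19.4% in OCI-AML3, 23.3% and 17.5% in MV4-11, and 26.9% and 27.2% in KG-1a. Of 21 genes for translation factors and other TOP mRNAs, 12 rose and 0 fell in MOLM-14 (median 0.30), and 2 rose and 14 fell in KG-1a (median -0.46). EEF1A1, which delivers aminoacyl-tRNA to the ribosome, had 28012 to 29391 CPM in MOLM-14, against 13054 to 22544 CPM in the other lines, and a log2 fold change of 0.78 (SE 0.06, adjusted p = 1.3e-07). Of 9 noncoding hosts of small nucleolar RNAs, 7 rose in MOLM-14 (median 0.96), 7 rose in OCI-AML3 (median 0.97) and 8 fell in KG-1a (median -1.30). GAS5, which carries a TOP motif, had 613 to 674 CPM in MOLM-14 and 460 to 619 CPM in OCI-AML3, against 147 to 203 CPM in MV4-11 and 125 to 181 CPM in KG-1a.

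Genes for making ribosomes were counted in the same way, and the difference between lists was not tested. Of 35 ribosome biogenesis genes, 1 rose and 22 fell in MV4-11 (median -0.41), and 16 rose and 2 fell in OCI-AML3 (median 0.33), where the ribosomal protein genes had medians of -0.06 and -0.03. Of 17 RNA polymerase I genes, 2 rose and 10 fell in MV4-11 and 8 rose and 3 fell in OCI-AML3. In MOLM-14 19 biogenesis genes rose and 0 fell, and in KG-1a 1 rose and 13 fell. Of 78 genes for mitochondrial ribosomal proteins, 27 rose and 2 fell in MOLM-14, 23 rose and 8 fell in OCI-AML3, 9 rose and 17 fell in MV4-11, and 5 rose and 35 fell in KG-1a. Of 18 tested genes for import and control of ribosomal proteins, 3 rose and 3 fell in MOLM-14 and 4 rose and 7 fell in KG-1a. FAU, outside the naming rule, had 377 to 395 CPM in MOLM-14, against 295 to 418 CPM in the other lines, a log2 fold change of 0.13 (SE 0.09, adjusted p = 0.282).

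None of these lists had a member past the threshold for either drug or both. At an unadjusted p under 0.05 the mitochondrial ribosomal proteins had 12 of 78 after pioglitazone, 3 after darglitazone and 9 for both drugs, where all genes had 5.96%, 3.4% and 4.86%. With pioglitazone alone 67 of the 78 genes had a negative log2 fold change, and with darglitazone alone also 67. For the mean of both drugs 70 did, with a median of -0.12. Of all 15424 genes 7964 were negative for that mean, with a median of -0.01, and of the 82 cytosolic members 39. MRPL12, a large-subunit protein of the mitochondrial ribosome, had -0.50 (SE 0.13, adjusted p = 0.898), MRPL54 -0.44 (SE 0.13, adjusted p = 0.898) and the assembly factor NOP16 -0.36 (SE 0.13, adjusted p = 0.932). GAS5 had 0.29 (SE 0.10, adjusted p = 0.932).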

How the data were processed

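Per the labels, a stranded library kit with ribosomal RNA depletion was used on total RNA. The authors deposited 1 table of estimated counts per transcript, not normalized; fastp, FastQC, STAR, featureCounts, DESeq2 and GRCh38 are named, without versions, per the submitters' processing notes. The tool behind the estimated counts and the annotation release are not given in the sources used here. Of the 203027 transcripts, 202941 (99.958%) matched GENCODE release 29. Estimated counts were summed per gene and rounded, and 15424 genes passed edgeR's filterByExpr (minimum count 10, minimum total 15, cell line as group). Library sizes were scaled by TMM, and CPM are scaled likewise, except for the cell type markers and the line-specific genes, which are scaled to all counts of a library. Log2 ratios within a line use a prior count of 2.

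The robust quasi-likelihood F test of edgeR 4.0.16 (R 4.3.3) was fitted to all 12 libraries with cell line and treatment as terms (6 residual degrees of freedom), and with a line by drug term for the interaction (3). All 15424 genes entered the Benjamini-Hochberg adjustment, and the threshold was 0.05. The cell line pairs the treatments by label. limma 3.58.1 and DESeq2 1.42.0 served as alternatives. The fit was also run on simulated counts with no differences between lines and the same dispersion for every gene. That setting is simpler than these data, so it does not show how the fit performs on them. Every interval covers 95%. Depth limits precision: 3 counts equal 0.047 CPM in the deepest library and 2.738 CPM in the shallowest, counting error only.

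The members, the gene lists and the naming rule were chosen with earlier results of these data known. Named were, per drug contrast, the 5 members of smallest p in each direction, per line contrast the 3 called members with the highest and lowest fold changes, the paralogue pairs, the 5 highest and lowest levels, 18 disease genes, and genes from the lists. Overlapping genes on the same strand were found for 9 members and on the opposite strand for 29. Some genes and sequences are not reported here.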

Additional observations from a re-analysis of the deposited data

Results flagged for a closer look

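In each treatment the 4 lines were examined for a library far from the other 3, over 42 sets of 4 values, and 5 stood apart. By chance about 1 set in 20 does so. The RPL22L1 share of its pair with RPL22 in OCI-AML3 was 70.3% with pioglitazone and 61.8% with darglitazone, against at most 14.8% and 15.4% in the other lines. The RPL26L1 share of its pair with RPL26 in KG-1a was 9.23% with pioglitazone, 6.59% with darglitazone and 8.09% with DMSO, against at most 1.99% in the other lines. These 5 flags repeat 2 features of 2 lines over treatments and are not independent.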

How the results depend on the processing

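No member passed the threshold in any drug contrast or in the interaction under the alternatives run for them, and without a replicate block (cell line left out of the model) the count was also 0 in each drug contrast. The interaction could not be fitted when a line's DMSO library was left out. Leaving out 1 library, the medians ran from -0.08 to 0.01 for pioglitazone, -0.02 to 0.08 for darglitazone, 0.03 to 0.1 between the drugs and -0.05 to 0.03 for both. The number of members called was 43 to 68 for KG-1a, 21 to 48 for MV4-11 (21 without its pioglitazone library), 33 to 42 for OCI-AML3, 55 to 73 for MOLM-14 and 69 to 80 for any line. Taken over all counts, the share difference was -0.699 points for pioglitazone. Taken over protein-coding counts (0.349 points with every line), without 1 line it ran from 0.154 to 0.529 points for pioglitazone, 0.196 to 0.939 for darglitazone and -0.013 to 0.69 between the drugs. As counts not divided by length, the paralogue shares of RPS27L, RPL39L and RPL7L1, averaged over lines, moved to 5.17%, 2.17% and 13.5%.

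Of 1669 values of 78 gene comparisons, 1641 kept direction and side of the threshold, 21 lost the threshold and 7 reversed. With pseudogenes added (chosen after seeing the data), RPL9 was 0.03 for darglitazone and 0.14 in MV4-11. With both pioglitazone libraries rich in FP671120.3 left out, RPL8 was -0.01 and RPL26L1 0.01 between the drugs. Leaving out 1 library each, the values between the drugs ran from -0.22 to 0.03 for RPL9, -0.15 to 0.02 for RPS3A and -0.23 to 0.02 for RPL7, positive without the OCI-AML3 darglitazone library. The causes were not tested. The calls lost were those of RPL22L1 in MOLM-14 (9 of 21 alternatives), RPL26L1 in MOLM-14 (6), RPS26 in MV4-11 (3), RPS4X in KG-1a (2) and RPS15 in MV4-11 (1). The shallowest library, OCI-AML3 with pioglitazone, limits what its ratios can show.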
